A study of Mus musculus with 2 samples.

Results

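JAK kinases, STAT transcription factors and their feedback inhibitors were compared between cultured CD4 T cells of 2 mouse genotypes, Menin KO and Menin WT. The group was chosen by name and comprised 10 genes of the 18434 named genes on the arrays: the kinase genes Jak1 and Jak3, the factor genes Stat3, Stat5a, Stat5b and Stat6, and the inhibitor genes Socs1, Socs2, Socs3 and Cish. All 10 were represented, by 16 probes in 34 spots, and all 16 probes were well above background on both arrays. A filter on dim signals therefore removed no member.

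There was 1 array of Menin KO cells and 1 array of Menin WT cells, both from spleens of female C57BL/6J mice. Menin, encoded by Men1, works in transcription complexes with MLL histone methyltransferases. Naive CD4 T cells of either genotype were activated over 2 days by immobilized anti-TCR-β antibody (3 µg/ml) together with anti-CD28 antibody (1 µg/ml), then moved to new plates for 3 days, with IL-2 at 2.5 ng/ml throughout. The labels do not say by which Cre line or in which cells Men1 was deleted, the age of the mice, or how many mice gave cells.

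Cytokine receptors of this family have no kinase of their own. Binding of a cytokine brings receptor-bound JAK kinases together, the kinases phosphorylate the receptor, and STAT proteins that dock there are phosphorylated, pair up and enter the nucleus to activate genes. Among those genes are Cish and the SOCS genes, whose products bind the receptors or the kinases and damp the signal. In T cells IL-2 acts mainly through JAK1, JAK3 and the STAT5 proteins, and IL-4 through STAT6. These arrays read messenger RNA, and the phosphorylated forms that carry the signal were not measured.

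The member kinase and factor genes differed by at most 1.29-fold between the 2 arrays. Of the 4 member inhibitor genes, 3 gave less signal in the Menin KO array: Socs2 was 2.08-fold lower, Socs3 1.51-fold and Cish 1.39-fold. Socs1 was the exception, with a log2 difference of 0.06 (-0.01 after median centring of the arrays). This contrast did not extend to relatives outside the group. There, 4 further kinase and factor genes had a median log2 difference of -0.47, and 4 other SOCS genes one of 0.00. Values are the processed spot signals in arbitrary units, and log2 differences are KO minus WT after each array was scaled to its 75th percentile of signal. That percentile was 650 in the KO array and 644 in the WT array, so scaling moved each difference by 0.01. By a size rule of 2-fold, 1 of the 10 members was lower in KO (Socs2), against 5.14% of the 13510 named genes with a usable value. None was higher, against 10.8% of those genes. Of the 10 members, 7 had a difference below 0, as did 50.5% of all genes, and the median difference was -0.18 for the members and -0.01 for all genes. With a limit of 1.5-fold, 2 members were lower (12.7% of all genes) and none was higher (17.3%).

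With 1 array a genotype no difference could be tested and none has a p-value. The only error that can be measured is technical. Among probes printed at least 5 times and with a signal of at least 100 on both arrays (105 probes), the log2 differences of single spots scattered around their probe's mean with a pooled SD of 0.05, and among 41 dimmer probes with one of 0.30. The differences of 12 of the 16 member probes were more than 2 such SDs from 0 and those of 4 were not. The same count was not made over all genes, so it does not set the members apart. For scale, Stat5a at -0.11 was 2.18 SDs from 0, and 39.9% of named genes with a usable value had a lower one. This SD covers spot scatter only and holds nothing of the variation among animals, cultures and labelling reactions, so a difference larger than it exceeds spot scatter on these 2 arrays and nothing more.

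**Figure D1:**
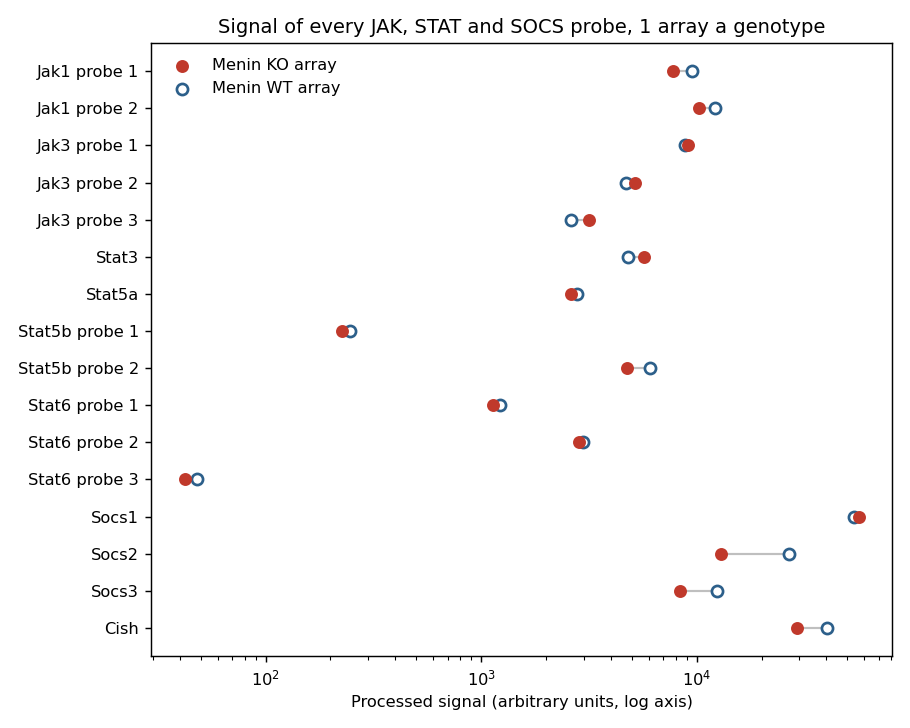
Processed signal of each of the 16 member probes (arbitrary units, log axis) in the Menin KO array (filled red) and the Menin WT array (open blue), 1 array each. The pair of points is widest for Socs2 (13017 in KO and 26772 in WT). It is nearly closed for Socs1, the Jak3 probe at the top of its set and the brightest Stat6 probe (2857 in KO and 2956 in WT). Signals of different probes are not comparable with each other.

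Jak1 and Jak3 encode the kinases bound to the signalling chains of the IL-2 receptor, JAK3 to the common gamma chain and JAK1 to its partner. The probes of Jak1 had signals of 7775 and 10290.5 in the KO array, against 9530 and 12193 in the WT array. Both were lower in KO, by nearly the same amount (log2 differences -0.31 and -0.26), and 5 or more technical SDs from 0. After normexp background correction the difference of the brighter probe was -0.0026, or -0.22 once high local backgrounds were replaced. The 3 probes of Jak3 had signals of 9119, 5169 and 3177 in KO, against 8791, 4726 and 2613 in WT. Their log2 differences of 0.04, 0.12 and 0.27 had the same sign but were not equal within the technical spread, and the first, of the brightest probe, was within 1 SD of 0 and became -0.04 after median centring. No direction is therefore given for Jak3.

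Among the STAT genes, Stat3 was read by 1 probe printed 10 times on each array. STAT3 carries the signals of IL-6, IL-10 and IL-21. The Stat3 spots ranged from 5400.5 to 6013 with a median of 5676 in the KO array, against 4572 to 4984 with a median of 4818 in the WT array. The spots did not overlap between the arrays, and all 10 pairs of spots at the same position were higher in KO, by 0.18 to 0.34 on the log2 scale. The difference was nevertheless small, 1.18-fold, with a log2 value of 0.24 ± 0.05 (SD over 10 spot pairs). That SD leaves out the choice of processing, under which the value ranged from 0.16 (median centring) to 0.47 (normexp background correction).

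Stat6 encodes the factor of IL-4 and IL-13 signalling and had 3 probes. The probe printed 10 times gave 1097 to 1186 with a median of 1138 over 9 usable spots in the KO array, against 1173 to 1290 with a median of 1224 over 10 spots in the WT array, so the lowest WT spot lay within the KO range. Its log2 difference was -0.12 ± 0.05 (SD over 9 spot pairs). The other two probes had signals of 2857 and 42.3 in KO, against 2956 and 47.8 in WT, and differences of -0.06 and -0.19. Neither of these was more than 2 technical SDs from 0, and the second probe was the dimmest of the group. The brightest Stat6 probe had a difference of 0.14 after normexp background correction, or -0.04 once high local backgrounds were replaced.

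**Figure D2:**
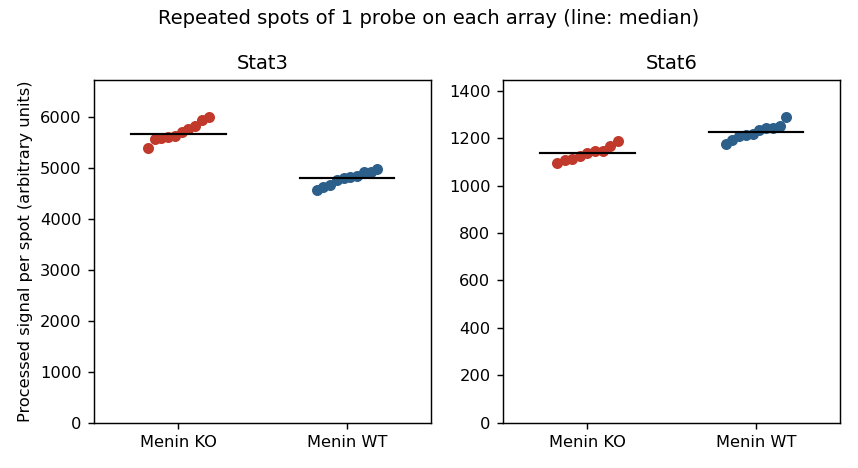
Processed signal of each usable spot (arbitrary units, axis from 0) of the Stat3 and Stat6 probes that were printed 10 times, in the Menin KO array (left) and the Menin WT array (right); lines are medians. The Stat3 spots are separated, with medians of 5676 in KO and 4818 in WT, and the Stat6 spots overlap, with medians of 1138 in KO and 1224 in WT; the spots are repeats within 1 array and not biological replicates.

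Stat5a and Stat5b encode near-identical factors that carry the IL-2 signal, and the RefSeq gene table places Stat5b, Stat5a and Stat3 side by side with no gene between them. Stat5a had a signal of 2604 in KO, against 2789 in WT, a log2 difference of -0.11 that became 0.15 after normexp. With high local backgrounds replaced before normexp, the Stat5a difference was -0.0057. Stat5b had signals of 4767 and 226 in KO, against 6083 and 247 in WT, with differences of -0.36 and -0.14. Both Stat5b probes were lower in KO, the brighter one 1.29-fold, while the neighbouring Stat3 was 1.18-fold higher. How far a probe of one STAT5 gene also reads the other was not tested.

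Among the members, the inhibitor genes differed most. Socs2, whose product damps growth hormone and STAT5 signalling, had a signal of 13017 in the KO array, against 26772 in the WT array. The log2 difference was -1.05, about 1 technical SD beyond the 2-fold limit, and 4.54% of named genes with a usable value had a lower one. Its call ended under 1 alternative, normexp background correction, where the difference was -0.80. With high local backgrounds replaced before normexp the call was kept, at -1.03. Socs3, the inhibitor of receptors that signal through gp130 and STAT3, had a signal of 8337 in KO, against 12497 in WT, a log2 difference of -0.60. A lower value was found for 12.2% of genes. Cish, which encodes CIS, a STAT5-induced inhibitor at the IL-2 receptor, had a signal of 29363 in KO, against 40398 in WT, a difference of -0.47 below which 16.3% of genes lay. Socs1, the direct inhibitor of JAK kinases and of interferon gamma and IL-4 signalling, was bright on both arrays, at 56537 in KO and 53637 in WT. Each of these 4 genes was read by 1 spot per array, so none has a spot SD of its own. No spot on either array was saturated. The median difference was -0.54 over the 4 inhibitors, -0.09 over the 4 STAT genes and -0.11 over the 2 kinases.

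**Figure D3:**
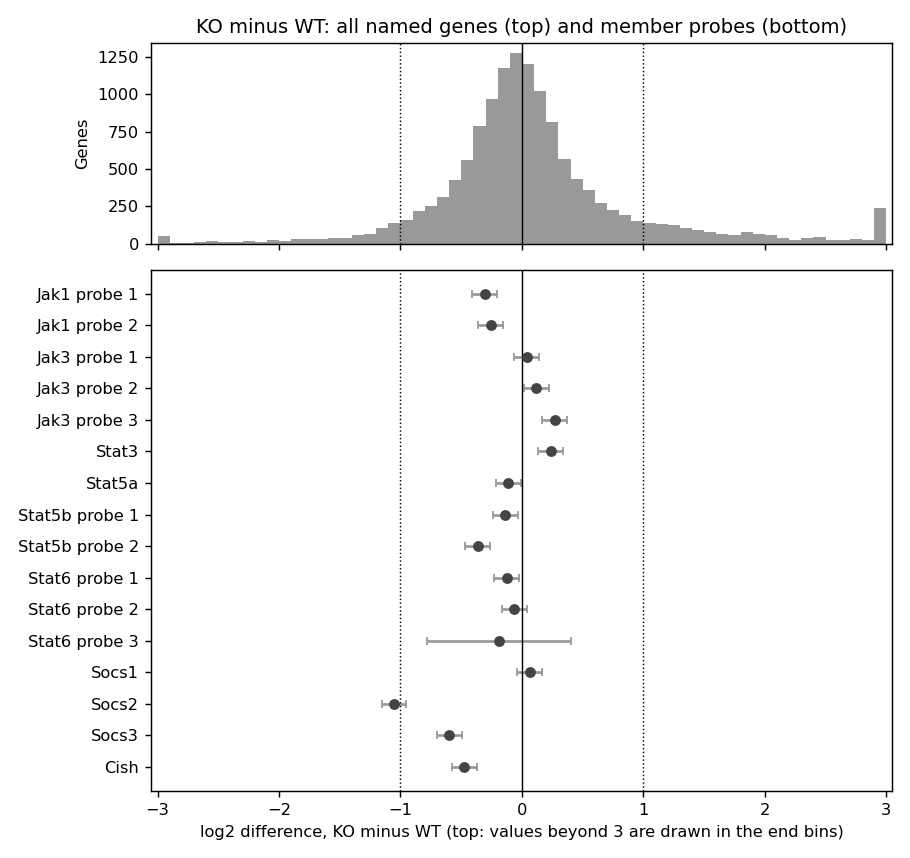
Number of named genes by log2 difference, KO minus WT (top, bins of equal width), and the log2 difference of each member probe (bottom; bars are 2 technical SDs on either side; dotted lines mark 2-fold). Socs2 lies at -1.05, on the edge of the 2-fold limit, Socs3 at -0.60 and Cish at -0.47, and the kinase and STAT probes lie between -0.36 and 0.27 in the middle of the distribution of all genes.

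Promoters were searched for the palindromic site that STAT dimers bind, TTCNNNGAA, which reads the same on both strands. The windows were those of RefSeq on GRCm38.p6, from 250 bases before to 50 bases after an annotated start, and 9 of the 10 members had one or more (11 windows), Socs2 not being among them. The motif occurred in 2 of the 11 member windows, those of Cish and Socs3, and in 8.30% of all 32851 windows. Cish held it 2 times, and 0.457% of all windows held it 2 or more times. The stretches of both genes with a match are shown, and capitals mark the motif. Both genes gave less signal in KO, and a part of the motif in that was not tested. The Socs3 stretch is chr11:117969367-117969616 on the minus strand, with the match starting 154 bases before the start. The Cish stretch is chr9:107296409-107296678 on the plus strand and runs 20 bases past the annotated start, with matches beginning at the start itself and 11 bases after it.
Socs3: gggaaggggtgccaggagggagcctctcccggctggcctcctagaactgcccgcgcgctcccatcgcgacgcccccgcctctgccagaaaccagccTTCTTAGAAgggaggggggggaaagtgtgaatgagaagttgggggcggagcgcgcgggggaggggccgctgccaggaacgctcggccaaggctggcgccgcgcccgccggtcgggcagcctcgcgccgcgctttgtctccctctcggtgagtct
Cish: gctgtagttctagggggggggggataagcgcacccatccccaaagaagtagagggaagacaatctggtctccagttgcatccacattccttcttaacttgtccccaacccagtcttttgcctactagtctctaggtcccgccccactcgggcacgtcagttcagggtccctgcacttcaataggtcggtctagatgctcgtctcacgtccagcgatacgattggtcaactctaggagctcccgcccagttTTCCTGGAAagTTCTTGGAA
The windows of Socs1, of the STAT genes and of the kinase genes held no match, which says only that these letters are absent from these windows. A match is a sequence description, and STAT binding was not measured.

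Further kinase and factor genes of these families were read as well. Stat4, the factor of IL-12 signalling, had 2355 in KO and 4765 in WT, 2.04-fold lower, but came below the 2-fold limit after loess (-0.97), after normexp (-0.78) and after normexp with high local backgrounds replaced (-0.98). Stat2, a factor of the type I interferon response, was 1.61-fold lower. Jak2 had a log2 difference of -0.25 and Tyk2, the kinase of interferon and IL-12 receptors, one of 0.27. Of these 4 genes 1 was at least 2-fold lower and none was higher, with a median of -0.47. None of the other SOCS genes was 2-fold apart: Socs4 (-0.02), Socs5 (-0.22), Socs6 (0.47) and Socs7 (0.02) had a median of 0.00.

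Among 12 other inhibitors of the pathway, 2 were at least 2-fold lower in KO, none was higher and 10 lay between, with a median of -0.62. Usp18, which restrains the interferon receptor, was 6.81-fold lower (859 in KO and 5801 in WT). Bcl6, a repressor that competes with STAT factors at some genes, was 3.29-fold lower. The phosphatase genes Ptprc, encoding CD45, and Ptpn6, encoding SHP-1, had log2 differences of -0.90 and -0.83. Of the dimmer Ptprc probes, one was past the 2-fold limit (-1.09, at 603 in KO and 1270 in WT) and the other was not (-0.85).

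The genes of the IL-2 receptor itself did not move as a block. Il2ra, the inducible alpha chain, had a signal of 4312 in KO and 2963 in WT (log2 difference 0.53, and 0.58 by its other probe). Il2rb, the beta chain bound by JAK1, had 91927 in KO and 85874 in WT (0.09). Il2rg, the common gamma chain bound by JAK3, had 4529 in KO and 6917 in WT (-0.62). Of 8 receptor chains of common gamma chain cytokines, 7 were measured and none was 2-fold apart, with a median of -0.23. The IL-7 receptor gene Il7r (0.83, and 1.04 after normexp) and the IL-15 receptor gene Il15ra (-0.48) belong to them.

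Receptor chains of the other cytokines of the pathway went both ways, with 5 of 16 past the 2-fold limit upwards in KO, 2 downwards and 9 within it. This balance depended on the processing: median centring gave 4 higher and 4 lower, with Il6st (-1.07) and Lifr (-1.04) past the limit, normexp gave 1 higher and 3 lower of 15, and normexp with high local backgrounds replaced gave 2 higher and 1 lower. The IL-12 receptor genes Il12rb2 (log2 difference 1.18, and 0.96 after normexp) and Il12rb1 (1.01, and 0.94 after median centring) were higher, as were Csf2rb2 (1.29) and Csf2rb (1.13) of the beta chain family of the GM-CSF, IL-3 and IL-5 receptors, and Osmr, whose WT signal was not well above background (at least 3.03-fold, but a log2 value of 0.43 after normexp with high local backgrounds replaced). The other measured Csf2rb probe had a difference of 0.11 (93.9 in KO and 86.0 in WT), and the mean over the probes was 0.62. Csf2rb2 and Csf2rb are dim, near-identical copies, and their differences were -0.36 and 0.24 after normexp, or 0.53 and 0.76 with high local backgrounds replaced. The lower ones were Ifnar2, a chain of the type I interferon receptor (-1.93, but -0.83 by its other probe), and Il6ra, the IL-6 receptor chain (-1.60 at signals of 32.2 in KO and 96.7 in WT, and -0.77 after normexp with high local backgrounds replaced). Il12rb1, Csf2rb, Il6st and Lifr here, Il13 among the cytokines, and Gzmb, Junb and Il17f in the target lists are named after their values were seen. They make each short count complete.

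Of 14 cytokine genes that signal through this pathway, 10 had a usable value, and 6 of these were at least 2-fold higher in KO, none lower, 2 between and 2 with bounds under 2-fold. The largest were Il5 (at least 34.0-fold), Il10 (16.8-fold), Il4 (log2 difference 2.20) and Csf2 (2.04). Il24 had a difference of 1.67 and Il13 one of 1.57 (146.8 in KO and 48.9 in WT). Il13 lost its call after normexp (0.0077) and after normexp with high local backgrounds replaced (0.77). Il2 itself was not well above background in KO, with a signal of 4.82, against 18.1 in WT; its bound passed the 2-fold limit after normexp (-1.42).

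**Figure D4:**
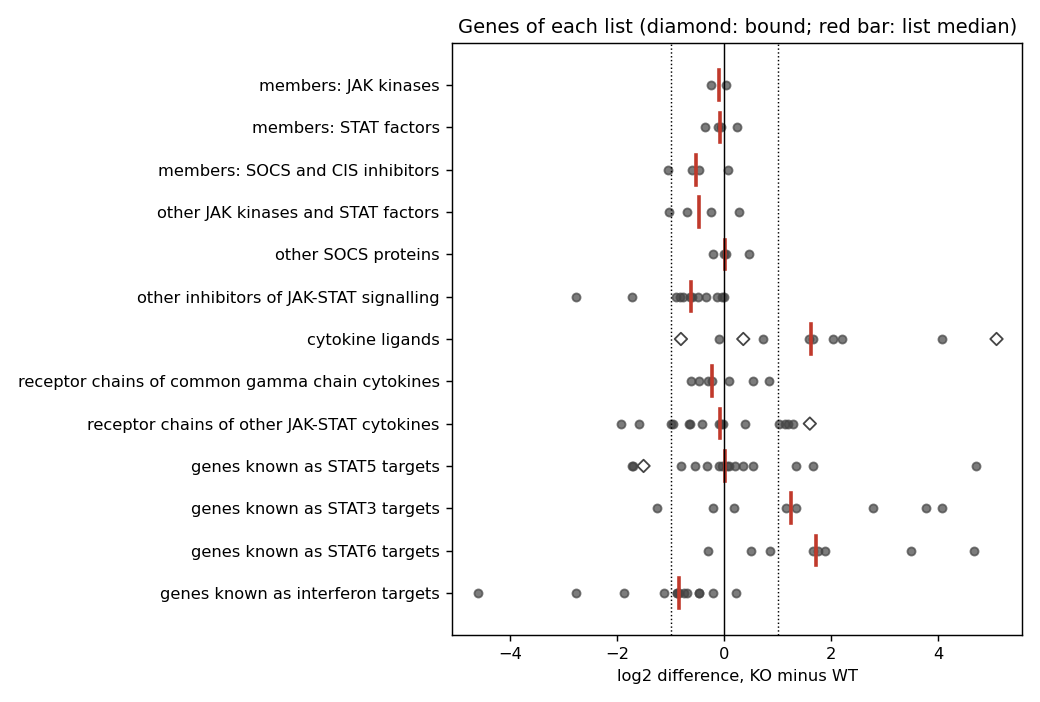
log2 difference, KO minus WT, of each gene (points; diamonds are bounds for genes read on 1 array only) in the member groups, the related pathway lists and the lists of known target genes; red bars are list medians and dotted lines mark 2-fold. The members cluster around 0 apart from the inhibitors (median -0.54), the lists of STAT3 and STAT6 targets lie to the right (1.25 and 1.71) and that of interferon targets to the left (-0.84).

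Genes known as targets of these factors went different ways from list to list. Of 8 targets of STAT6, 5 were at least 2-fold higher in KO and 3 lay within the limit (median 1.71), among them Epas1 (25.5-fold), the nuclear receptor gene Pparg (11.2-fold), the chemokine receptor gene Ccr8 (log2 difference 1.87, and 0.75 after normexp), Nfil3 (1.75) and Il24, beside a Stat6 difference within 0.19 of 0 for every probe. Targets of STAT3 had 5 of 8 higher, 1 lower (Il17f, -1.27, and -0.42 after normexp with high local backgrounds replaced) and 2 between (median 1.25): Il10, the transcription factor gene Maf (13.6-fold), Prdm1 (2.78), Batf (1.35) and Junb (1.15). Targets of STAT5 were split, with 3 of 16 higher, 3 lower and 10 between and a median of 0.00. This list holds no member, so neither the STAT5-induced Cish (-0.47) nor Socs2 (-1.05) is counted in it. Nor does it separate genes that STAT5 raises from genes that it lowers, so its median does not measure STAT5 activity. Prf1, encoding perforin (log2 difference 4.70), Il24 and Gzmb, encoding granzyme B (2.54-fold), were higher, and Bcl6, Lta (3.25-fold) and Foxp3 (at least 2.85-fold) were lower. The Foxp3 bound, from a WT signal of 29.3, was -0.51 on the log2 scale after normexp with high local backgrounds replaced. Targets of interferon had none higher, 4 of 13 lower and 9 between (median -0.84), namely Ifit3 (24.3-fold), Usp18, Rtp4 (-1.88) and Cxcl10 (-1.13, but just short of 2-fold after loess and -0.64 after normexp with high local backgrounds replaced). Many of these genes answer to other factors too, some stand on several lists, and the lists were drawn up with earlier results of these arrays known, so the counts are not independent evidence of their direction.

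Men1 was 2.38-fold lower in KO (signals of 459 in KO and 1081 in WT), and whether its only probe lies in the deleted part is not known here. On the KO array 63.5% of non-control spots were well above background, and on the WT array 59.5%. All 6 T cell markers were well above background on both arrays and less than 2-fold apart (summed signal 113386 in KO and 122970 in WT). The CD4 gene, which defines the labelled cell type, was dim, at 279 in KO and 443 in WT. Markers of other cells moved beside these values. The CD8 T cell marker Cd8a was higher in KO (3213, against 312 in WT). Of 6 natural killer markers 4 were at least 2-fold higher, the 5 measured on both arrays summing to 9126 in KO and 2303 in WT. Of these sums Fcer1g gave 5087 in KO and 669 in WT, and Tyrobp 1229 and 253. Of 7 macrophage and monocyte markers 3 were higher. The 4 measured on both arrays summed to 481 in KO and 323 in WT, of which Cd14 gave 256 in KO and 35.01 in WT, and their median log2 difference was -0.19. Of 5 usable mast cell and basophil markers 3 were higher (468 in KO and 81.6 in WT over 3), and of 4 B cell markers 1 was (1577 in KO and 889 in WT over 3). That marker, Ms4a1, had a log2 difference of 1.01, which came below the limit after median centring (0.93), quantile normalization (0.99), normexp (0.26) and normexp with high local backgrounds replaced (0.70). After normexp Cd14 (0.67), Fcgr3 (0.16) and Mcpt8 (0.29) also lost their calls, and Klrk1 (-0.078) and Fcer1a (-0.51) were below 0. With high local backgrounds replaced, Adgre1 (0.66), Klrk1 (0.76) and Fcer1a (0.37) were under the limit. Ncr1, Fcgr3, Adgre1, Mcpt8, Gata2 and Cd79a were not well above background in WT, Lyz2 was not in KO, and Ms4a2 was not on either array. The part of such cells in the differences was not tested. In bulk RNA more or fewer cells of a type and more or less RNA per cell cannot be told apart.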

How the data were processed

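Total RNA of cultured CD4 T cells, 1 sample a genotype, was hybridised to 1-colour (Cy3) Agilent arrays. Per the file headers, spots were read by Agilent Feature Extraction 10.7.3.1 on a probe design annotated on mm9, and the submitters' processing notes give version 10.7. The intensity used is the authors' processed spot signal, background-subtracted and linear, without scaling between arrays, per the file headers. The authors' deposited value table holds log2 values. Each column equals the log2 processed signal less 1 constant per array (9.27 in KO, 9.28 in WT) within 0.01 for 99.7% of 41174 probes, which settles its scale, centring and direction; its medians were -3.90 in KO and -3.97 in WT.

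Flagged spots were left out (103 in KO and 115 in WT of 43379), log2 signals were reduced by the 75th percentile of their array, and spots of a probe were averaged. Probes were named through their transcript accession and a RefSeq gene table of GRCm38.p6, used for names and neighbours: 27050 probes had 1 symbol, 0 several and 14124 none. A gene took its brightest probe that was well above background on at least 1 array, and every member probe is also given. A gene detected on 1 array only gets a bound, taken against the dim value or the lowest detected level of the other array, whichever is higher. The design was 1 array against 1 with no test. Normexp used limma 3.58.1 with an offset of 50 on median spot signals and local backgrounds, since mean signals were not available. The procedure was run on simulated arrays made from the WT array with shifts set in advance. That run checks the code and not the differences reported here. Members and lists were chosen with earlier results of these data known. The text names every member, up to 4 genes of each list by size plus bounds of at least 2-fold, the genes Jak2, Tyk2, Stat2 and Stat4, the IL-2 receptor genes and Men1. A gene of 2 of the lists is not reported here, and list counts leave it out. The number of arrays limits the precision.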

Additional observations from a re-analysis of the deposited data

How the results depend on the processing

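Socs2, Socs3, Cish, Stat3 and Stat5b kept their direction under all 11 alternatives that give a value per gene, which comprised 4 on scaling, 2 on background correction, the authors' value table, kept outlier flags, the mean over probes and 2 filters on dim probes. Jak1 kept its sign but came to -0.0026 after normexp. Jak3 and Socs1 changed sign after median centring (-0.04 and -0.01), and Stat5a and Stat6 after normexp (0.15 and 0.14). With high local backgrounds replaced, normexp gave -0.22 for Jak1, -0.0057 for Stat5a and -0.04 for Stat6. The count of members at least 2-fold lower was 1 under all of these except normexp (0), and 2 with a limit of 1.5-fold; the count of members higher was 0 under each. The members' median of -0.18 became -0.26 after median centring, 0.069 after normexp and -0.13 after normexp with high local backgrounds replaced. In KO the residual background fitted by normexp was -1.60; in WT it was -140.5, or -12.9 once 6 local backgrounds above 200 were replaced. Over all genes, normexp gave 601 higher and 1697 lower, or 759 higher and 370 lower with the backgrounds replaced, against 1458 and 694 as reported, and no filter on dim probes gave 2121 and 1113. No scaling moved the median of all genes by more than 0.08. Of the list genes past the 2-fold limit, 3 had the opposite sign after normexp: Csf2rb2 (-0.36), Fcer1a (-0.51) and Klrk1 (-0.078). Across the list counts, list medians, single genes and member probes, 1953 of 2142 values were classed as the same. For genes and probes this meant the same sign and the same side of the limit. For medians it meant a move of less than the technical SD. Counts were classed as the same when equal or within a ratio of 1.5, so some of these counts did change. No paired analysis was possible because each genotype has 1 array. Signals under 100 had a pooled spot SD of 0.30, against 0.05 for brighter ones, which limits the folds of dim genes. Normexp gave the highest and median centring the lowest value of each of the 10 genes: Socs2 lay between -1.13 and -0.80, Socs3 between -0.67 and -0.32, and Cish between -0.55 and -0.21.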
